A study of Mus musculus with 8 samples.

Results

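The CCN genes encode secreted matricellular proteins, and 5 of them, Ccn1 (Cyr61), Ccn2 (Ctgf), Ccn3 (Nov), Ccn4 (Wisp1) and Ccn5 (Wisp2), are described here in the long bones of Hyp and wild-type mice. They were taken as all probe sets whose annotation gave exactly 1 gene symbol and that symbol was one of these names. This gave 10 of the 45037 probe sets tested and 5 of the 18193 genes with a value: 4 probe sets for Ccn1, 2 each for Ccn3 and Ccn4, and 1 each for Ccn2 and Ccn5.

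Hyp mice lack a 3′ part of Phex, here on a C57BL/6 background, and are a model of X-linked hypophosphatemia, in which excess FGF23 causes renal phosphate loss and the bone is poorly mineralized. RNA of male Hyp mice was compared with RNA of male wild-type (WT) mice, whose strain label reads only wild type. All mice were 12 days old, the tissue was tibia and femur in both genotypes, the diet was a standard one, and each genotype had 4 arrays. Because little RNA was obtained, each RNA pooled 2 bone samples of the same genotype, and nothing given with the samples says how many animals those were, so p-values measure the spread between these RNAs. The deletion is germline and the bones are whole, so the arrays read bone, cartilage, marrow, vessels and attached tissue together.

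CCN proteins are built from a shared string of modules: a domain like that of the insulin-like growth factor binding proteins, a von Willebrand factor type C domain, a thrombospondin repeat and a C-terminal cystine knot. They bind integrins, heparan sulfate proteoglycans and growth factors at the cell surface, and they act there as modulators rather than as structural fibres. CCN5 lacks the C-terminal cystine knot of the other members. In skeletal tissue, CCN2 is best known from the growth plate and CCN1 from osteoblasts and vessels, while CCN4 and CCN5 were first described as proteins induced by Wnt1 in mouse mammary cells.

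Ccn1 and Ccn2 are classical targets of the YAP and TAZ coactivators, which act through TEAD factors, and Ccn1 is also an immediate early gene of serum and growth factors. Only the Ccn1 promoter is printed, since no promoter sequence of Ccn2, Ccn3, Ccn4 or Ccn5 was available here, and the members were not compared. It holds a TEAD core, on which several lists below bear. It comes from RefSeq (GRCm38.p6, chr3:145649936-145650235, minus strand), and holds 250 bases before and 50 bases after the annotated start. The capitals mark CATTCC, the core bound by TEAD factors, then CGTCA, the opposite strand of TGACG, a core of the cyclic AMP response element, and TATAAA, known as the TATA box.
Ccn1: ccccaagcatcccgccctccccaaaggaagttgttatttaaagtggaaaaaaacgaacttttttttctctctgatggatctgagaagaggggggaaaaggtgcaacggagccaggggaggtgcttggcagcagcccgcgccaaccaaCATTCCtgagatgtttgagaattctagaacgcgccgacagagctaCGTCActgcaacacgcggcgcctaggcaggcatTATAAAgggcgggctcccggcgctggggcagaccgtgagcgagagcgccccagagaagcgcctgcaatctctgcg
The TEAD core began 103 bases, CGTCA 58 bases and the TATA box 25 bases before the start. Searched on both strands, CATTCC or its reverse complement stood in 14.7% of all 32851 promoter windows of this length, TGACG in 20.8% and TATAAA in 13.6%, with no overlap between the matches in Ccn1. These matches describe the letters of the window and not binding.

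The deposited values are log2 intensities after the RMA procedure, with each probe set set to a median of 0 over the 8 arrays. They show how arrays differ for a probe set and give no level of expression, so no CCN gene can be called more or less abundant than another. Array medians lay between -0.0082 and 0.0082, and the number of arrays limits the precision (median SE of a gene's difference 0.065). Phex, the deleted gene, lay between -4.93 and -3.72 in Hyp and between 3.72 and 4.00 in WT at one probe set and between -2.74 and -2.03 in Hyp and between 2.03 and 2.96 in WT at the other, so each array fitted its genotype label. The place of either probe set within Phex was not checked against the deleted part.

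The CCN genes went in different directions in Hyp bone: Ccn5 rose, Ccn4 fell, and Ccn1, Ccn2 and Ccn3 had lower mean values in Hyp that did not pass the test. Thus 2 of 5 genes and 3 of 10 probe sets passed (limma, adjusted p under 0.05 over all genes or all probe sets). Of all genes 12.9% passed, 6.54% higher and 6.32% lower in Hyp, and 7.13% of probe sets. The groups did not overlap for 2 of 5 CCN genes and 4 of 10 CCN probe sets, against 19.2% of all genes and 15.5% of all probe sets. With so few members these counts are a description. The median difference over all genes was 0.025 on the log2 scale.

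**Figure D1:**
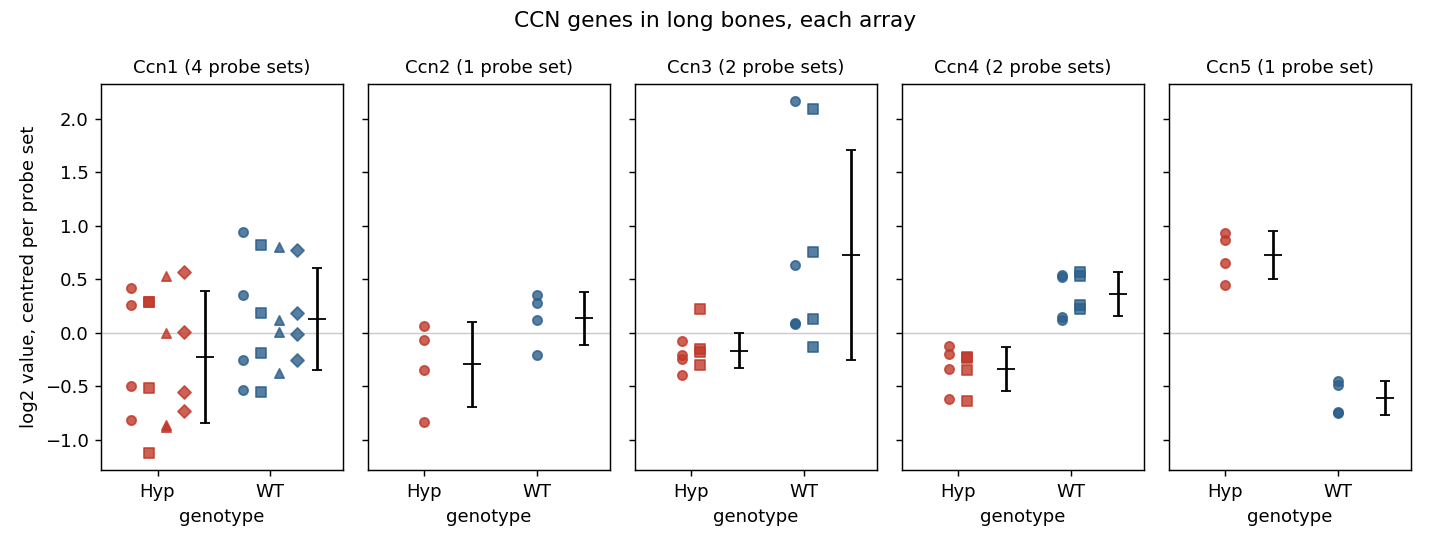
Log2 values, centred per probe set (vertical axis), of the CCN probe sets in 4 Hyp arrays (red) and 4 WT arrays (blue); marker shapes separate probe sets of a gene, and black bars give the mean and SD of the gene mean over 4 arrays. The Hyp arrays all lie above the WT arrays for Ccn5 and all below them for Ccn4, while a single WT array reaches 2.13 on the gene mean of Ccn3.

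Ccn5, the member without a C-terminal cystine knot, had values of 0.94, 0.45, 0.86 and 0.65 in Hyp replicates 1 to 4, against -0.74, -0.45, -0.75 and -0.49 in WT replicates 1 to 4. Every Hyp array lay above every WT array. Means were 0.73 ± 0.22 in Hyp and -0.61 ± 0.16 in WT (SD, n = 4 each), a rise of 1.33 ± 0.11 on the log2 scale (SE; 95% interval 1.09 to 1.58), or 2.52-fold (limma adjusted p = 5.78e-05 on the gene mean). By the size of its difference Ccn5 ranked 26 among the 18193 genes. The value rests on 1 probe set, 1419015_at, so no second probe set checks it. In whole bone, a change in the number of cells of a type and a change in RNA per cell cannot be told apart. This holds for Ccn5 as for the genes that follow.

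Ccn4, which in mouse and human cells binds the small proteoglycans decorin and biglycan and promotes osteoblast differentiation, was lower in Hyp with each of its probe sets. Its gene mean was -0.35, -0.18, -0.21 and -0.63 in Hyp replicates 1 to 4, against 0.54, 0.20, 0.55 and 0.17 in WT replicates 1 to 4. The groups did not overlap, and WT replicates 1 and 3 were the highest arrays. Means were -0.34 ± 0.21 in Hyp and 0.36 ± 0.20 in WT (SD, n = 4 each), and the gene fell by 0.71 ± 0.12 on the log2 scale (SE; 95% interval -0.97 to -0.45), a 1.63-fold change in size (limma adjusted p = 0.00302).

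The probe sets of Ccn4 differed by at most 0.12 on any array. Probe set 1448594_at fell by 0.76 ± 0.11 (SE; limma adjusted p = 0.00252) and 1448593_at by 0.65 ± 0.13 (limma adjusted p = 0.0148). Without WT replicate 1 the difference at 1448593_at was -0.58 and just missed the threshold (limma adjusted p = 0.0529), while the gene mean passed without each of the arrays in turn.

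Ccn3, which binds Notch1 and restrains osteoblast differentiation in mice, had mean values that were lower in Hyp and did not pass. Its gene mean was 0.07, -0.27, -0.27 and -0.19 in Hyp replicates 1 to 4, against -0.02, 0.11, 0.69 and 2.13 in WT replicates 1 to 4. The WT arrays lay farther apart than the Hyp arrays, WT replicate 4 was far above the others, and Hyp replicate 1 lay above WT replicate 1. Means were -0.17 ± 0.16 in Hyp and 0.73 ± 0.99 in WT (SD, n = 4 each), a difference of -0.89 ± 0.38 (SE; 95% interval -1.74 to -0.05; limma adjusted p = 0.158).

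Without WT replicate 4 the difference of Ccn3 was -0.43 (limma adjusted p = 0.132), so that array moved the value by more than 1.5 times. At probe set 1426851_a_at the groups did not overlap, with Hyp arrays between -0.40 and -0.08 and WT arrays between 0.08 and 2.17 (limma adjusted p = 0.163). At 1426852_x_at they overlapped, with Hyp arrays between -0.30 and 0.22 and WT arrays between -0.13 and 2.09 (limma adjusted p = 0.256). The suffix of the second marks probes that can match other transcripts.

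Some markers of tendon and periosteal fibroblasts were high in WT replicate 4, as Ccn3 was, and others were not. Tnmd (tenomodulin, a tendon membrane protein) lay between -0.46 and 0.02 in Hyp arrays, and at 1.501 in WT replicate 4 and between -0.04 and 0.19 in the other WT arrays. The mean over the 12 measured markers of this list lay between -0.13 and 0.09 in Hyp arrays, and at 0.35 in WT replicate 4 and between -0.08 and -0.02 in the other WT arrays. Of these 12 markers 2 were higher and 4 lower in Hyp. Scx, the tendon transcription factor, lay between -0.25 and -0.01 in Hyp arrays and between -0.00 and 0.18 in WT arrays, where replicate 4 was the lowest. Among WT arrays Postn was also lowest in replicate 4, and Mkx was lower there than in replicates 2 and 3. Dpt and Fmod were highest in WT replicate 4. Tnmd, Scx, Postn, Mkx, Dpt and Fmod were named after their values were seen. The part of such tissue in the Ccn3 values was not tested.

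Ccn1, an integrin ligand that promotes vessel growth, varied widely within each genotype. Its gene mean was -0.66, -0.84, 0.45 and 0.14 in Hyp replicates 1 to 4, against -0.11, -0.43, 0.53 and 0.52 in WT replicates 1 to 4. The groups overlapped, with low and high arrays in both genotypes. Means were -0.23 ± 0.62 in Hyp and 0.13 ± 0.48 in WT (SD, n = 4 each), a difference of -0.35 ± 0.30 (SE; 95% interval -1.01 to 0.31; limma adjusted p = 0.49). The interval of this fit runs from lower to higher in Hyp.

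The 4 probe sets of Ccn1 gave differences between -0.44 and -0.28, and none passed (limma adjusted p from 0.474 to 0.674). They parted most on WT replicate 4, by 0.82, where 1416039_x_at and 1438133_a_at lay at 0.94 and 0.82 and 1442340_x_at and 1457823_at, both designed from the same source sequence, at 0.12 and 0.19. Without both Hyp replicate 2 and WT replicate 3, the arrays with the lowest and highest skeletal muscle signal, the gene mean differed by -0.01 (limma adjusted p = 0.983).

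Ccn2, the connective tissue growth factor of cartilage and of fibrotic tissue, was at -0.35, -0.83, 0.07 and -0.07 in Hyp replicates 1 to 4, against 0.12, -0.21, 0.28 and 0.35 in WT replicates 1 to 4. The groups overlapped at WT replicate 2, and Hyp replicate 2 was the lowest array, as for the gene mean of Ccn1. Means were -0.30 ± 0.40 in Hyp and 0.14 ± 0.25 in WT (SD, n = 4 each), a difference of -0.43 ± 0.18 (SE; 95% interval -0.84 to -0.03, before adjustment; limma adjusted p = 0.156). Without Hyp replicate 2 the difference was -0.25 (limma adjusted p = 0.304).

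Spread within genotype set the members apart in how precisely they were measured. The SD within genotype was 0.71 for Ccn3, 0.55 for Ccn1 and 0.33 for Ccn2, larger than in 99.8%, 99.8% and 99.3% of all genes, whose median was 0.094. For Ccn4 it was 0.20 and for Ccn5 0.19, larger than in 95.8% and 94.6% of genes. By the size of the difference alone, Ccn3 ranked 125, Ccn4 242, Ccn2 680 and Ccn1 1020 among 18193 genes.

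**Figure D2:**
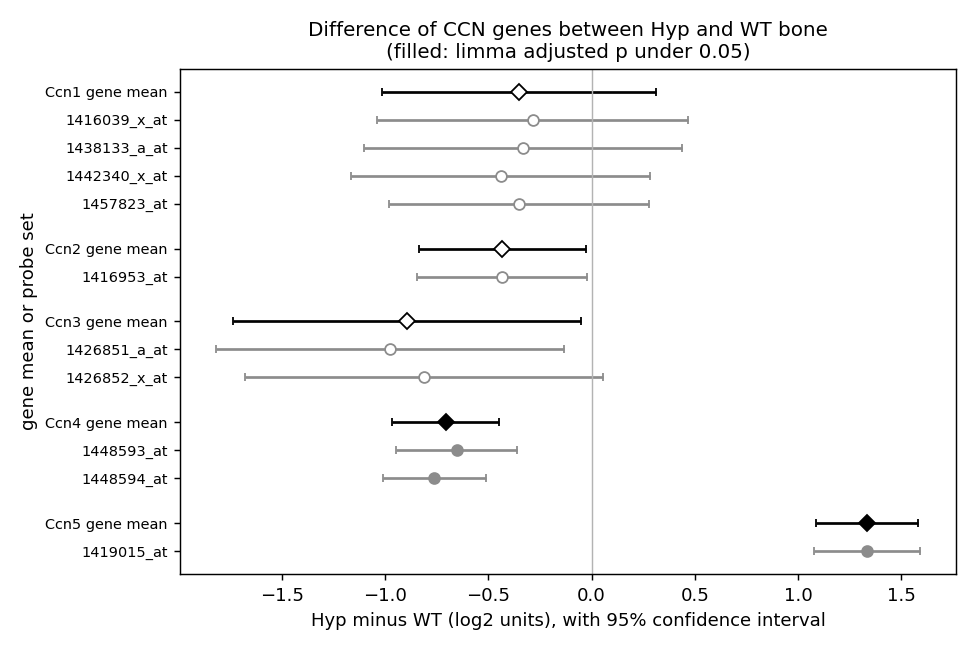
Hyp minus WT difference on the log2 scale (horizontal axis) with its 95% interval, unadjusted, for each CCN gene mean (black diamonds) and probe set (grey circles); filled symbols had a limma adjusted p under 0.05. Ccn5 lies at 1.33 and Ccn4 at -0.71, while the wide intervals of Ccn1 and Ccn3 belong to the members with the largest spread within genotype.

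Responses of the members were also set against each other, with the gene mean of one minus that of another on each array and an exact permutation test of Hyp against WT over the 10 pairs. The smallest p that 4 against 4 arrays allow is 0.0286, and the 4 pairs with Ccn5 reached it (adjusted p = 0.0714 over the 10 pairs, exact permutation, two-sided). After adjustment 0 of 10 pairs passed, and 4 did before it. With only 4 pairs at the smallest p, none could pass after adjustment however large its difference. No conclusion is drawn from that count. The difference between Ccn4 and Ccn5, Ccn4 minus Ccn5, was -1.07 ± 0.31 in Hyp and 0.97 ± 0.36 in WT (SD, n = 4 each). The responses thus differed by -2.04 ± 0.24 (SE), with no overlap between the genotypes. That outcome was fixed in advance, since neither gene overlapped by itself and they went in opposite directions. The p of this pair therefore adds nothing to the results of each gene. For the pairs of Ccn5 with Ccn3, Ccn2 and Ccn1 the responses differed by -2.23 ± 0.48, -1.77 ± 0.23 and -1.69 ± 0.40, Ccn5 being subtracted. These pairs share the Ccn5 values, which did not overlap between genotypes by themselves, so they are not separate evidence.

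Among Ccn1, Ccn2, Ccn3 and Ccn4 no pair could be told apart in its response (exact permutation p from 0.343 to 0.914). The closest were Ccn1 and Ccn2, whose responses differed by 0.08 ± 0.20 (SE). A p that misses the threshold does not show that these members respond alike, and the SE of the other 5 pairs was between 0.30 and 0.57.

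The gene means of Ccn1 and Ccn2 were low and high on much the same arrays. Both had their lowest Hyp value and their lowest WT value in replicate 2. Both were higher in Hyp replicates 3 and 4 than in Hyp replicates 1 and 2. At the Ccn1 probe sets 1442340_x_at and 1457823_at, however, the lowest Hyp array was replicate 1 (-0.88 and -0.73). The mean over 18 immediate early genes, the class to which Ccn1 belongs, stayed between -0.04 and 0.11 in Hyp arrays and between -0.12 and 0.05 in WT arrays. Fos, a transcription factor of that class named after its values were seen, lay at -0.22, -0.15, 0.24 and 0.20 in Hyp replicates 1 to 4, against 0.03, -0.03, -0.05 and 0.36 in WT replicates 1 to 4. Fos was thus also lower in Hyp replicates 1 and 2 than in 3 and 4, over a smaller range than Ccn1. Among WT arrays it was lowest in replicate 3, where the gene mean of Ccn1 was highest. Other genes of the list, named after their values were seen, were split. Fosb and Jun had the same order in Hyp arrays, and Egr1 and Junb did not. Skeletal muscle markers were lowest in Hyp replicate 2 (list mean -1.08) and highest in WT replicate 3 (1.77). The gene mean of Ccn1 was also lowest and highest there, but no probe set of Ccn1 had both extremes on these arrays. That gene mean was nearly as high in WT replicate 4 (0.52 against 0.53), where the muscle list mean was 0.27. In Hyp replicate 1 it was -0.66, with a muscle list mean of 0.15. With the muscle list mean as a covariate Ccn1 differed by -0.09 ± 0.27 and Ccn2 by -0.28 ± 0.17 (SE; limma adjusted p = 0.877 and 0.348). The part of muscle tissue in the Ccn1 and Ccn2 values was not tested.

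**Figure D3:**
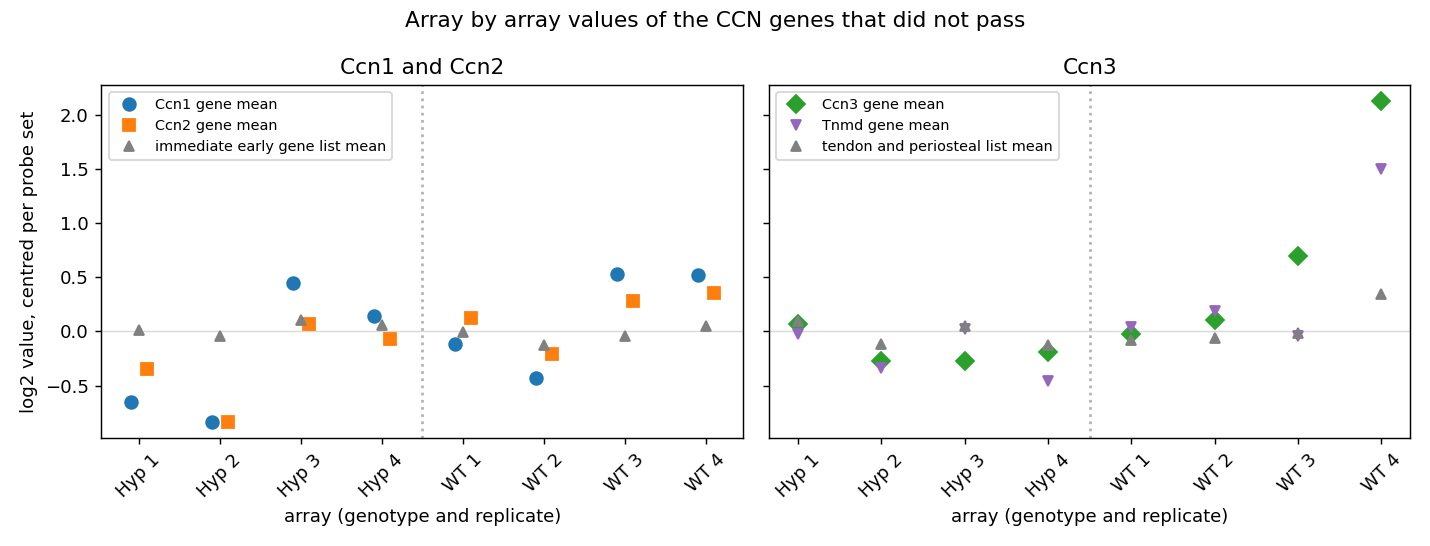
Log2 values, centred per probe set (vertical axis), on each of the 4 Hyp and 4 WT arrays (horizontal axis, split by the dotted line), for Ccn1, Ccn2 and the mean of the immediate early list (left) and for Ccn3, Tnmd and the mean of the tendon and periosteal list (right). The gene means of Ccn1 and Ccn2 are both lowest in Hyp replicate 2. Those of Ccn3 and Tnmd are both highest in WT replicate 4, at 2.13 and 1.501.

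Ccn6 (Wisp3), the remaining family gene, was outside the 5 and had 1 probe set. It lay between 0.005 and 0.13 in Hyp and between -0.21 and -0.005 in WT, a difference of 0.20 ± 0.06 (SE). This missed the threshold (limma adjusted p = 0.0515 over all genes and 0.103 over all probe sets).

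The genes nearest to Ccn5 over the 8 arrays, by the root mean square difference of gene means centred on their own mean, were Sfrp4 (0.16 log2 units), Mgp (0.16) and Ccl3 (0.20). Sfrp4 encodes a secreted frizzled-related protein, Mgp an inhibitor of calcification and Ccl3 a chemokine, and they rose by 1.46 ± 0.13, 1.14 ± 0.08 and 1.16 ± 0.13 (SE). The nearest to Ccn4 were Col24a1, a fibrillar collagen of bone (0.07), Ackr3, a scavenger receptor for the chemokine CXCL12 (0.07), and Sp7, the osteoblast transcription factor osterix (0.10). They fell by 0.74 ± 0.09, 0.68 ± 0.12 and 0.71 ± 0.08, and each of the 6 genes has 1 probe set. This likeness follows the genotype difference and is a description of 8 arrays.

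Genes on which CCN proteins act or depend were described by 9 lists, one of them Ccn6 alone. Of 129 distinct genes measured, 19 rose and 16 fell, which is 27.1% against 12.9% of all genes. Lists chosen for bone pathways with earlier results known need not match the whole table, and nothing particular to CCN biology is read from that share.

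Among 26 measured receptors and binding partners of CCN proteins, 5 rose and 4 fell (median 0.05). Itgb5, a subunit of a vitronectin receptor that binds CCN1, rose by 0.32 ± 0.05 and Itgb2, a leukocyte integrin subunit, by 0.25 ± 0.05 (SE; limma adjusted p = 0.00176 and 0.00724). Bgn (biglycan), a partner of CCN4, fell by 0.33 ± 0.06 and Bmp2, an osteogenic ligand, by 0.92 ± 0.16 (limma adjusted p = 0.00373 and 0.00447). Of the others that passed, named after their values were seen, Tnfrsf11b (osteoprotegerin, a decoy receptor that limits osteoclast formation) rose by 0.65 ± 0.15, Acan (aggrecan of cartilage) by 0.59 ± 0.14 and Hspg2 (perlecan) by 0.26 ± 0.06 (limma adjusted p = 0.0166, 0.0225 and 0.0178). Itgb8, an integrin subunit, fell by 0.41 ± 0.11 and Dcn (decorin) by 0.29 ± 0.08 (limma adjusted p = 0.0411 and 0.0384), the probe sets of Dcn parting at -0.64 and 0.06. The integrin subunits Itgav and Itgb3, which together form a receptor for CCN1 on endothelial cells, differed by -0.03 ± 0.09 and -0.08 ± 0.06 (SE; limma adjusted p = 0.854 and 0.419), and these too were named after their values were seen.

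Of 17 measured Hippo kinases and their YAP, TAZ and TEAD effectors, 2 rose and 1 fell (median 0.01). Vgll3, a TEAD cofactor, rose by 0.29 ± 0.05, Tead2 by 0.27 ± 0.07 and Lats1, a kinase that inhibits YAP, fell by 0.27 ± 0.06 (SE; limma adjusted p = 0.00547, 0.0247 and 0.0196). The probe sets of Lats1 parted at -0.53 and -0.02. Of 20 other YAP and TAZ target genes, 3 rose and 2 fell (median 0.01). F3 (tissue factor, the starter of coagulation) rose by 1.09 ± 0.12 and Rbms3, an RNA-binding protein, by 0.21 ± 0.05, while Tgfb2 fell by 0.41 ± 0.07 and Ccdc80, a secreted matrix protein, by 0.32 ± 0.07 (limma adjusted p = 0.000225, 0.0126, 0.00372 and 0.00908). Ankrd1 and Amotl2, widely used readouts of YAP activity and named after their values were seen, differed by -0.08 ± 0.08 and 0.00 ± 0.08 (limma adjusted p = 0.558 and 0.99).

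Of 13 SRF and MRTF factors and contractile targets, 2 rose and none fell (median 0.13): Fhl2, a LIM-domain cofactor, by 0.61 ± 0.05 and Myl9, a smooth muscle myosin light chain, by 0.34 ± 0.09 (SE; limma adjusted p = 7.84e-05 and 0.0292). Of the 13, 12 had differences above 0 and 1 below 0. The list mean lay between 0.04 and 0.10 in Hyp arrays and between -0.22 and -0.005 in WT arrays. TGF-beta, the main inducer of Ccn2 in connective tissue, had 12 measured targets, of which 3 rose and 4 fell (median -0.05). Lox (lysyl oxidase, which crosslinks collagen) fell by 0.78 ± 0.06, Adam12 by 0.57 ± 0.07 and Smad7, an inhibitor in the same pathway, by 0.26 ± 0.06, while Tgfbi, a secreted adhesion protein, rose by 0.25 ± 0.05 (limma adjusted p = 4.05e-05, 0.000524, 0.0133 and 0.0143).

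Of 16 measured Wnt and beta-catenin targets other than CCN genes, 3 fell and none rose (median -0.05), where 12.9% of all genes passed. Of the 16, 6 had differences above 0 and 10 below 0. Ccn4 had the direction of the 3 that passed and Ccn5 the opposite one, and a link of either to Wnt signalling was not tested. Notum, a feedback inhibitor of Wnt, fell by 1.24 ± 0.23, Lgr6, a receptor for R-spondins, by 0.64 ± 0.12 and Apcdd1 by 0.49 ± 0.07 (SE; limma adjusted p = 0.00594, 0.0052 and 0.000913). The probe sets of Lgr6 parted at -1.11 and -0.17, and those of Apcdd1 lay between -0.68 and -0.06. Axin2, the usual readout of this pathway and named after its values were seen, differed by -0.08 ± 0.05 (limma adjusted p = 0.384).

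Of 18 immediate early genes 2 rose and 1 fell (median 0.05). Egr2 rose by 1.19 ± 0.15 and Ier3 by 0.34 ± 0.09, and Klf4 fell by 0.71 ± 0.07 (SE; limma adjusted p = 0.000526, 0.0379 and 0.000179). Of 9 Notch receptors and targets, listed because CCN3 binds Notch1, 2 rose and 1 fell (median 0.12). Notch3, a receptor of mural cells, rose by 0.43 ± 0.07 and Nrarp, a feedback inhibitor, by 0.29 ± 0.08, and Hey1, a Notch target, fell by 0.51 ± 0.11 (limma adjusted p = 0.002, 0.0416 and 0.0143). Tead2, Ccdc80, Myl9, Ier3, Hspg2 and Itgb8 passed on the gene mean while no probe set of theirs passed among all probe sets. Of the probe sets of Vgll3, Rbms3 and Tgfbi, 1 of 3, 1 of 4 and 1 of 4 passed. For Lats1, Lgr6, Smad7, Nrarp, Tnfrsf11b and Dcn it was 1 of 2.

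**Figure D4:**
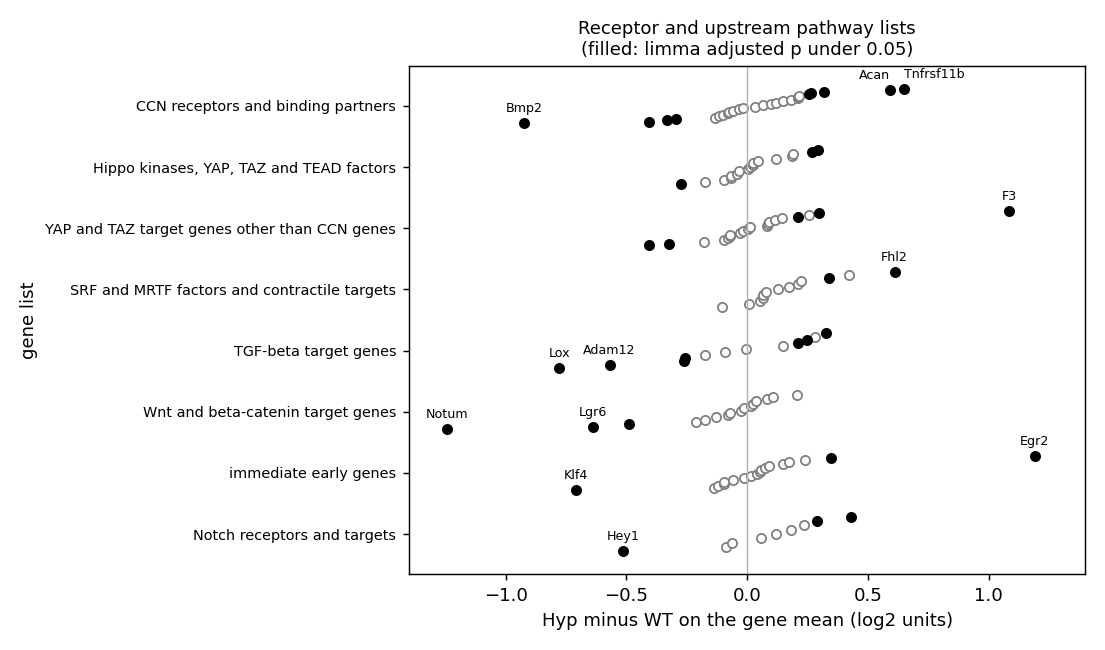
Hyp minus WT difference on the gene mean in log2 units (horizontal axis) of each measured gene of 8 lists (rows); filled circles had a limma adjusted p under 0.05, and those beyond 0.5 in size are named. The named genes reach from -1.24 (Notum) to 1.19 (Egr2).

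Markers of several cell types moved with genotype alongside Ccn4 and Ccn5. Osteoblast markers were lower, with 9 of 11 measured lower and 1 higher and a list mean between -0.45 and -0.19 in Hyp arrays and between 0.24 and 0.38 in WT arrays. Chondrocyte markers were higher for 6 of 12 and lower for 1, with list means between 0.01 and 0.49 in Hyp and between -0.39 and -0.09 in WT. For macrophages 8 of 9 were higher (0.17 to 0.49 in Hyp and -0.38 to -0.25 in WT) and for endothelial cells 11 of 12 (0.11 to 0.24 in Hyp and -0.37 to -0.18 in WT).

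Smooth muscle and pericyte markers were higher for 5 of 10, erythroid ones for 5 of 8 and mast cell and eosinophil ones for 6 of 7, each list with no marker lower and no overlap of its means. Of 10 osteocyte markers, Phex and Fgf23 among them, 2 were higher and 2 lower. Of 6 adipocyte markers 1 was higher and 1 lower. Osteoclast markers had 1 of 10 lower, neutrophil markers 1 of 10 higher and B lineage markers 3 of 9 lower. Of 14 skeletal muscle markers 0 passed in limma, with list means between -1.08 and 0.15 in Hyp and between -0.41 and 1.77 in WT. With the muscle list mean as a covariate Ccn5 rose by 1.36 ± 0.125 and Ccn4 fell by 0.69 ± 0.13 (SE; limma adjusted p = 0.000233 and 0.00938). The values are centred, so which defining markers are absent cannot be read. The part of the other cell types in the Ccn4 and Ccn5 differences was not tested.

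**Figure D5:**
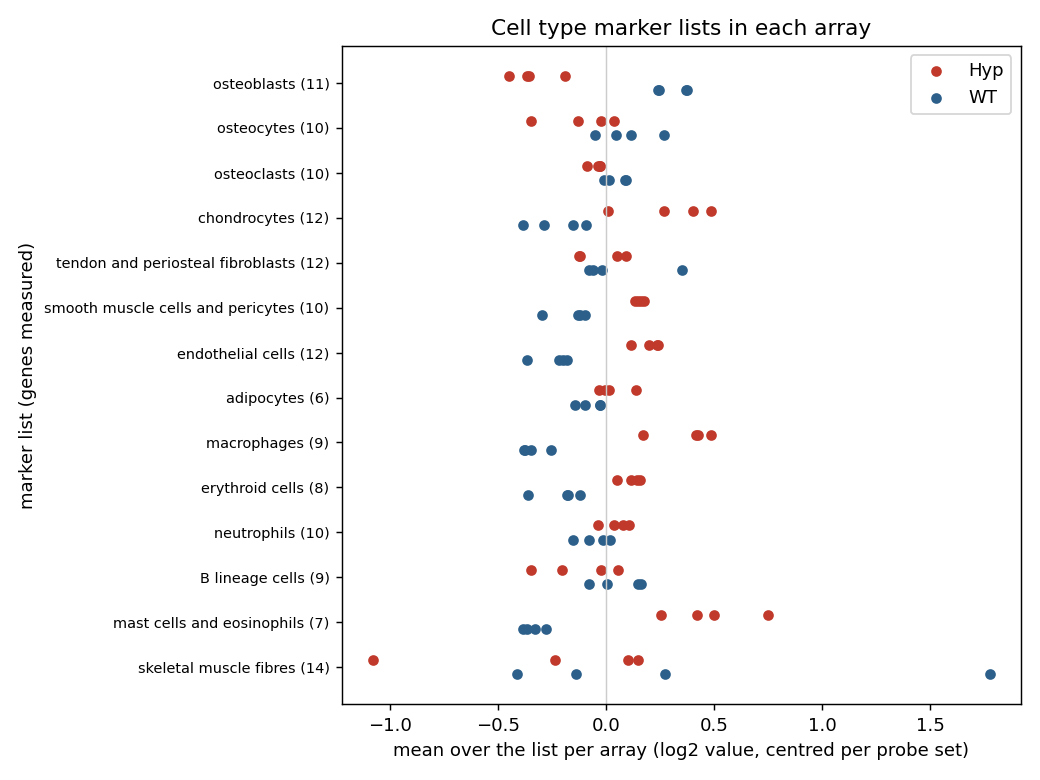
Mean over each cell type marker list (rows, with the number of genes measured) on each of 4 Hyp arrays (red, upper) and 4 WT arrays (blue, lower), as log2 values centred per probe set. Osteoblast means are lower in all Hyp arrays and macrophage, endothelial and mast cell means higher, while the skeletal muscle means of the genotypes overlap and reach -1.08 in a Hyp array and 1.77 in a WT array.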

How the data were processed

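Biotin-labelled total RNA of 8 samples was hybridised to microarrays. The deposited log2 values were made by the authors with RMA, per the submitters' processing notes (version not given in the sources used here). The median of the 8 values of a probe set was 0 within 5e-07, so the values had also been centred per probe set, which no label records. The log base is taken as 2, since RMA gives log2 and single probe sets span up to 8.92 units.

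Of 45101 probe sets 64 controls were left out. One gene symbol was annotated for 34945, several for 932 and none here for 9160, and 34741 of the first were matched by gene ID to RefSeq (GRCm38.p6) for current names. Hyp was compared with WT by limma 3.58.1 (R 4.3.3; lmFit and eBayes, two-sided, no covariate), with Benjamini-Hochberg adjustment over all probe sets, or over all genes after averaging the probe sets of a gene on each array, and a threshold of 0.05. Errors marked SE and the 95% intervals come from that fit, except for pairs of members, whose SE comes from the 2 group variances. Pairs of members were tested with exact permutation (scipy 1.17.1). The procedure was tested on simulated data. The members and lists were chosen with earlier results of these data known. Genes named are the members, Phex, up to 4 genes per pathway list that passed with the smallest p, and the 3 genes nearest to each member that passed; any other was chosen after its values were seen, which the text states. Alternatives were a replicate block, other normalizations, weights, priors, filters, covariates, thresholds and probe set choices, and leaving out arrays. Same-numbered arrays were compared by the correlation of their deviations from the group means.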

Additional observations from a re-analysis of the deposited data

How the results depend on the processing

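Ccn5 stayed higher and Ccn4 lower past the threshold on the gene mean in all 20 alternatives run, with differences from 1.26 to 1.54 for Ccn5 and from -0.77 to -0.61 for Ccn4. The number of CCN genes past the threshold was 2 in each of them except with the replicate number as a block, where it was 4: Ccn1 (-0.35, limma adjusted p = 0.0287) and Ccn2 (-0.43, 0.00914) passed as well, and 4 of 10 probe sets passed against 3. Same-numbered Hyp and WT arrays correlated in their deviations at 0.15, -0.04, 0.26 and 0.18, so 1 of 4 was under 0.1. Differently numbered arrays correlated at values between -0.27 and 0.20, and not every array correlated best with its own number. No label says what a number marks, so the numbers were not taken to pair the samples, and these values do not show that they carry no pairing. Pair differences under that block could not pass (smallest exact p = 0.125), nor could they with 1 array fewer. Ccn1 at 1416039_x_at turned to 0.0098 without both Hyp replicate 2 and WT replicate 3. At 1448593_at Ccn4 missed a threshold of 0.01. Ccn3 has no probe set without a shared-probe suffix. The pathway lists held 35 genes past the threshold, 17 at a threshold of 0.01 and between 23 (without WT replicate 1) and 39 when 1 array was left out. Over all probe sets 3212 passed, against 1302 at 0.01, 5293 at 0.10 and between 1680 (without WT replicate 1) and 4100 (without WT replicate 3) with 1 array fewer; over all genes 2340 passed, 1025 at 0.01 and 1410 without WT replicate 1. The number of arrays limits the precision. A filter on level was not run, since the values are centred.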
